A study of Mus musculus with 6 samples.

Results

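Receptors of the IL-1 family and 2 secreted mediators linked to tissue repair were examined in tumor regulatory T cells (Tregs), by taking the rows of 8 named genes out of a count table of 23420 genes. The genes are Il1rl1, which encodes the IL-33 receptor ST2, the IL-1 receptors Il1r1 and Il1r2, the co-receptor Il1rap, both chains of the IL-18 receptor (Il18r1 and Il18rap), the growth factor amphiregulin (Areg) and the enkephalin precursor Penk. All 8 were found, and 7 of them passed the filter on low counts that left 10352 genes for testing, the exception being Il1r1.

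The Tregs came from T11 tumors, a transplanted claudin-low model of triple-negative breast cancer, in BALB/c Foxp3-GFP mice that had received 10000 tumor cells. In the anti-PD-1 group (libraries 4, 5 and 6) the mice were injected intraperitoneally with 200 µg of the antibody J43 at 2 injections per week. In the untreated group (libraries 1, 2 and 3) no antibody is named, so the antibody cannot be told apart from the injections that carried it. In both groups tumors were taken at 150 mm2 and GFP-positive cells were sorted, so the comparison covers cells that express the Foxp3 reporter. Whether the libraries of 1 group came from separate mice is not stated in the labels, so a p-value here weighs a difference against library-to-library spread alone, which may be technical.

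IL-1 family cytokines are released by damaged or inflamed tissue and bind a specific receptor chain that then pairs with a co-receptor. Il1rap serves the IL-1 receptor and ST2, and Il18rap serves the IL-18 receptor. The paired chains recruit the adaptor MyD88 and kinases of the IRAK family, which lead to NF-kB and MAP kinases. Il1r2 binds IL-1 without a signalling tail and acts as a decoy. ST2-bearing Tregs of mouse tissues are known to respond to IL-33, and amphiregulin from Tregs is known to act on epithelial and stromal cells through the EGF receptor. Penk gives rise to enkephalins, opioid peptides, and is expressed by some tissue Tregs in mice.

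Of the genes examined, 5 lie in 1 cluster on the plus strand of chromosome 1 in mm10, in the order Il1r2 (from 40084768), Il1r1, Il1rl1, Il18r1 and Il18rap (to 40549297). Il1rap lies on chromosome 16, Areg on chromosome 5 and Penk on chromosome 4. The RefSeq table of GRCm38.p6 holds promoter sequences for 7 of the 8 genes, in 11 entries. The bases before the annotated starts of Il1rl1 and Areg are shown because these were the most abundant receptor and the most abundant mediator per length. Il1rl1 has 2 annotated starts, and the exons that were counted begin at 40439649, so a first exon at the distal start was not counted. Capitals mark matches on either strand to AGATAA (the motif of GATA factors, in 9.99% of 32851 RefSeq promoters over the same 250 bases), TGACGTCA (the cAMP response element, 1.55%) and TATAAA (the TATA box, 12.4%). None of these matches overlapped another. The motifs TGANTCA (AP-1, 6.75%) and that of NF-kB (0.356%) were searched as well and have no match in the 11 entries. Each sequence is plus strand, 5′ to 3′, and ends at the base before the start.
Il1rl1 distal start, chr1:40429320-40429569: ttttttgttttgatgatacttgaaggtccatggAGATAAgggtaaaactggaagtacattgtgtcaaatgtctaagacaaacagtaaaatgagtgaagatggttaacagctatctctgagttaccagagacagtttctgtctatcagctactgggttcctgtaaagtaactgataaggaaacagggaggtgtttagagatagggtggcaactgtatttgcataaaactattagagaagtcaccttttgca
Il1rl1 proximal start, chr1:40439379-40439628: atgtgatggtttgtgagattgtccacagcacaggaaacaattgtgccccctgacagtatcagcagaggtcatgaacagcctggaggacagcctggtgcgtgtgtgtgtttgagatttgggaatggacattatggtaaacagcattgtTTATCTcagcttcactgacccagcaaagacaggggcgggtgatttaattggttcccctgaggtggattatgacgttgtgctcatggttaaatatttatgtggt
Areg, chr5:91139349-91139598: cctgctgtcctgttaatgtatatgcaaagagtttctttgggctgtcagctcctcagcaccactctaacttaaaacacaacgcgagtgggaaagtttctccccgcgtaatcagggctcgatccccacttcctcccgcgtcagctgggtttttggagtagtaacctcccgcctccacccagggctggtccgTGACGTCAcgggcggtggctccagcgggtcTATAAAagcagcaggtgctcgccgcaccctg

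Total counts ran from 4766533 to 5219249 in anti-PD-1 libraries and from 5470816 to 6686774 in untreated libraries, so depth and treatment go together. In a multidimensional scaling of all libraries, untreated library 1 stood apart on dimension 1 (2.40, the others from -0.66 to -0.39), and the fold change of each tested gene is also given without it. The sorted cells carried Treg transcripts: Foxp3 had 543, 562 and 461 CPM (counts scaled to a common library size, with TMM factors) in the anti-PD-1 group, against 460, 437 and 453 CPM in the untreated group. Markers of other cells that are known to use these receptors were low, some of them at 0. All 8 neutrophil markers together had 0 to 0.207 CPM in anti-PD-1 and 0 to 0.179 CPM in untreated libraries, and the basophil genes Mcpt8 and Prss34, the mast cell gene Fcer1a and the type 2 innate lymphoid genes Arg1 and Il5 had no count in any library. Others were counted: Kit had 13 to 18.4 CPM in anti-PD-1 and 7.42 to 16.1 CPM in untreated libraries, and the mast cell protease genes Tpsab1 and Tpsb2 had 14 and 9 counts in anti-PD-1 library 5 and none elsewhere. Hdc, a mast cell and basophil gene, had 5, 6 and 3 counts in anti-PD-1 and 1, 0 and 0 in untreated libraries. Of the type 2 innate lymphoid genes, Hey1 had 6.63 to 9.52 CPM in anti-PD-1 and 1.43 to 8.32 CPM in untreated libraries. Il17rb had 2.07 to 6.45 CPM in anti-PD-1 and 1.12 to 5.9 CPM in untreated libraries. Cd8a, a gene of CD8 T cells, had 9.89 to 23.8 CPM in anti-PD-1 and 5.4 to 15.5 CPM in untreated libraries, and Cd8b1 had 8.86 to 27.3 CPM in anti-PD-1 and 4 to 15.5 CPM in untreated libraries. The part of these cells in the results below was not tested.

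The abundance of the genes differed widely. Per kilobase of exon and over all 6 libraries, Areg was highest at 176 ± 40.1 CPM per kilobase (SD, n = 6), above 97.7% of tested genes. Il1rl1 followed at 74.7 ± 21.7 and Il18r1 at 63.6 ± 14.8 CPM per kilobase. Il1rl1 exceeded Il18r1 in 5 of 6 libraries, but their ranges overlapped. Penk at 35.4 ± 16.4, Il18rap at 18.8 ± 6.41 and Il1r2 at 16.3 ± 8.58 CPM per kilobase came next, again with overlapping ranges between neighbours, and Il18rap exceeded Il1r2 in 3 of 6 libraries. Il1rap stood lower, at 3.52 ± 0.864 CPM per kilobase, and Il1r1 lowest, at 0.159 ± 0.172. The ranges of Areg and Il1rl1, of Il1r2 and Il1rap, and of Il1rap and Il1r1 did not overlap.

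The comparison of treatments asked whether tumor Tregs of anti-PD-1-treated mice differ in these transcripts. None of the 7 tested genes passed the threshold, a Benjamini-Hochberg adjusted p under 0.05 in edgeR's quasi-likelihood test over all tested genes, which called 0.029% of them (3 of 10352). DESeq2, which called 0.785% of the genes it gave an adjusted p, called none of the 5 members among them. The median log2 fold change (anti-PD-1 over untreated) of the 7 was -0.30, against 0.00 for all tested genes, and 5 of 7 lay below 0, as did 49.9% of all tested genes. At an unadjusted p under 0.05 stood 1 of the 7, Penk, where 8.3% of tested genes did (4.23% with higher and 4.07% with lower values). Without the filter on low counts Il1rl1, Il1r2 and Penk did, where 7.6% of genes did, and none had an adjusted p under 0.05. The edgeR adjusted p of the 7 ran from 0.461 to 0.991. In sorted bulk RNA, fewer cells with a transcript and less of it per cell cannot be told apart.

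**Figure D1:**
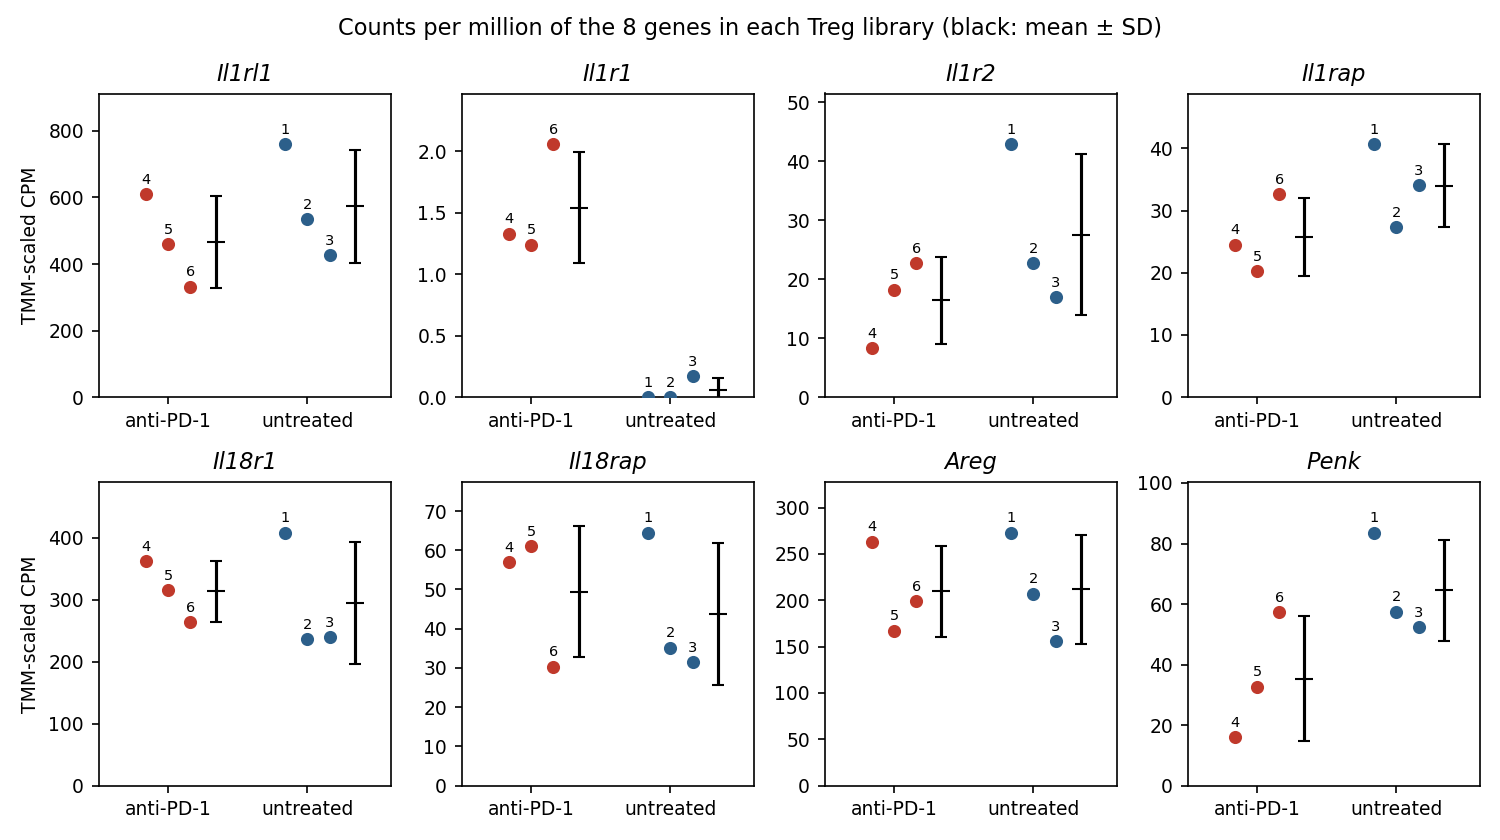
TMM-scaled CPM (vertical axes, linear, from 0) of each gene in the anti-PD-1 libraries (red, 4 to 6) and the untreated libraries (blue, 1 to 3); black marks give the mean ± SD, and the bar of untreated Il1r1 is cut at 0. Il1r1 is the gene whose groups do not overlap, at 1.24 to 2.06 CPM in anti-PD-1 and 0 to 0.169 CPM in untreated libraries.

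Il1rl1, the receptor for IL-33, had 609, 459.9 and 332 CPM in anti-PD-1 libraries, against 760.3, 534 and 427 CPM in untreated libraries. The groups overlapped, with untreated library 1 highest and anti-PD-1 library 6 lowest. The means were 467 ± 139 CPM in anti-PD-1 and 574 ± 170.3 CPM in untreated libraries (SD, n = 3 each), and edgeR gave a log2 fold change of -0.30 ± 0.22 (SE, adjusted p = 0.76). The 95% interval of the fold ran from 0.59 to 1.13. The log2 fold change was -0.04 when untreated library 1 was left out, -0.10 when anti-PD-1 library 6 was, -0.54 when anti-PD-1 library 4 was and -0.47 when untreated library 3 was.

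Il1rap, the co-receptor that ST2 shares with the IL-1 receptor, had 24.5, 20.3 and 32.6 CPM in anti-PD-1 libraries, against 40.7, 27.3 and 34.1 CPM in untreated libraries. Anti-PD-1 library 6 lay within the untreated values and the other anti-PD-1 libraries lay below them. The log2 fold change was -0.41 ± 0.29 (SE, edgeR adjusted p = 0.747), and ran from -0.61 (anti-PD-1 library 6 left out) to -0.26 (untreated library 1 left out) when 1 library was left out. Il1rl1 counts were 24.9, 22.7 and 10.2 times those of Il1rap in anti-PD-1 libraries, against 18.7, 19.5 and 12.5 times in untreated libraries. These ratios overlapped (difference in mean log2 ratio 0.11, two-sided exact permutation p = 0.8, adjusted p = 0.9 over 3 ratios).

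Of the IL-1 receptors, the decoy Il1r2 had 8.34, 18.2 and 22.7 CPM in anti-PD-1 libraries, against 42.9, 22.7 and 16.9 CPM in untreated libraries. Anti-PD-1 library 4 was lowest, untreated library 1 highest, and the other libraries of both groups shared 1 range. The log2 fold change was -0.77 ± 0.40 (SE, edgeR adjusted p = 0.631), and the 95% interval of the fold ran from 0.33 to 1.04. The log2 fold change was -0.28 when untreated library 1 was left out, -0.44 when anti-PD-1 library 4 was, -1.03 when untreated library 3 was and -1.08 when anti-PD-1 library 6 was.

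Il1r1, the IL-1 receptor that signals, was counted 7, 6 and 10 times in anti-PD-1 libraries, against 0, 0 and 1 times in untreated libraries. In CPM these were 1.33, 1.24 and 2.06, against 0, 0 and 0.169, so the groups did not overlap. Of the tested genes, 13.6% did not overlap (higher in anti-PD-1 for 7.18%, lower for 6.44%). Il1r1 is not among them, and the share among genes with counts as low was not computed. The ratio of the summed scaled counts was 27.3 (95% exact binomial interval 4.44 to 1125, which covers counting error only), from 23 fragments in anti-PD-1 and 1 in untreated libraries. A two-sided exact permutation test of the CPM gave p = 0.1, the smallest that 3 libraries against 3 allow. Groups without overlap always give this value, so it adds nothing to the missing overlap. This test of a gene that failed the filter was not planned beforehand. Without the filter on low counts edgeR gave Il1r1 an unadjusted p of 0.0565 and an adjusted p of 0.675, where it called 0.352% of 14756 genes. The mean log2 ratio of the decoy to the signalling receptor was 3.24 ± 0.61 in anti-PD-1 and 7.71 ± 1.52 in untreated libraries (SD, n = 3 each, two-sided exact permutation p = 0.1, adjusted p = 0.3). Its size rests on the few Il1r1 counts: the difference was -4.47 with 0.5 added to each count and -2.19 with 5 added. For 3 other cell types the marker sums, though not each marker, were higher in every anti-PD-1 than in every untreated library. How often sums of such lists separate over all genes was not computed. Type 2 innate lymphoid markers summed to 12.8 to 13.8 CPM in anti-PD-1 and 7.68 to 10.3 CPM in untreated libraries, almost all from Hey1 and Il17rb, each of which overlapped between the groups, with Il5, Arg1 and Ptgdr2 at 0. Endothelial markers summed to 83.6 to 123 CPM in anti-PD-1 and 64.5 to 73.7 CPM in untreated libraries, with 4 of 5 of them at 0 and all counts from Pecam1, and basophil markers to 1.03 to 1.24 CPM in anti-PD-1 and 0 to 0.337 CPM in untreated libraries, from Hdc and Cd200r3 alone. Of the 9 tumor and fibroblast markers, Dcn and Pdgfra had no count, and the sum was 328 to 386 CPM in anti-PD-1 and 295 to 344 CPM in untreated libraries. Thy1, which T cells express as well, gave 290.3 to 332 CPM of it in anti-PD-1 and 255 to 316 CPM in untreated libraries, Fn1 gave most of the rest, and the collagen genes, Sparc and Pdgfrb were each at most 6.08 CPM. The sums of 6 further cell type lists overlapped between the groups. Macrophage and monocyte markers summed to 8.53 to 12.2 CPM in anti-PD-1 and 3.52 to 12.6 CPM in untreated libraries, and dendritic cell markers to 6.63 to 10.8 CPM in anti-PD-1 and 5.54 to 16.3 CPM in untreated libraries. Mast cell markers, mostly Kit, summed to 14.2 to 25.9 CPM in anti-PD-1 and 8.1 to 16.1 CPM in untreated libraries, and NK cell markers to 2.88 to 10.8 CPM in anti-PD-1 and 7.68 to 9.11 CPM in untreated libraries. CD8 T cell markers summed to 24.3 to 57.9 CPM in anti-PD-1 and 13.4 to 34.8 CPM in untreated libraries, and B cell markers to 4.95 to 19 CPM in anti-PD-1 and 3.2 to 10.8 CPM in untreated libraries. The part of any of these cells in the Il1r1 counts was not tested.

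Over all 6 libraries the IL-18 receptor chains showed no difference that exceeded the spread. Il18r1, the ligand-binding chain, had 362, 315 and 264 CPM in anti-PD-1 libraries, against 408, 236 and 239 CPM in untreated libraries. Il18rap, its co-receptor, had 56.9, 61.1 and 30.3 CPM in anti-PD-1 libraries, against 64.5, 35.2 and 31.4 CPM in untreated libraries. For both chains untreated library 1 was the highest of all, and all anti-PD-1 values lay within or close to the untreated range. The log2 fold changes in edgeR were 0.09 ± 0.19 for Il18r1 (SE, adjusted p = 0.931) and 0.17 ± 0.29 for Il18rap (adjusted p = 0.911). The 95% interval of the fold ran from 0.812 to 1.40 for Il18r1 and from 0.74 to 1.71 for Il18rap. Without untreated library 1 the log2 fold changes were 0.40 and 0.57 (edgeR unadjusted p = 0.0119 and 0.0484, adjusted p = 0.482 and 0.632). Without untreated library 3 they were -0.04 and -0.02, so leaving out 1 library turned the sign of each. Il18rap had between 0.115 and 0.194 counts per Il18r1 count in anti-PD-1 libraries and between 0.131 and 0.158 in untreated libraries (difference in mean log2 ratio 0.06, two-sided exact permutation p = 0.9).

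Of the secreted mediators, Areg had 263, 167 and 199 CPM in anti-PD-1 libraries, against 273, 207 and 156 CPM in untreated libraries. The anti-PD-1 values lay inside the untreated range, with means of 209.8 ± 48.5 CPM in anti-PD-1 and 212 ± 58.6 CPM in untreated libraries (SD, n = 3 each). The log2 fold change was -0.01 ± 0.20 (SE, edgeR adjusted p = 0.991), and the 95% interval of the fold ran from 0.748 to 1.31. Its sign turned when libraries were scaled by total counts or by the upper quartile (0.02 each), and the value was 0.21 without untreated library 1 and -0.21 without anti-PD-1 library 4.

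Penk was the member with the smallest p. It had 16.1, 32.7 and 57.3 CPM in anti-PD-1 libraries, against 83.6, 57.5 and 52.4 CPM in untreated libraries. Anti-PD-1 libraries 4 and 5 lay below every untreated library, and anti-PD-1 library 6 lay inside the untreated range. The means were 35.4 ± 20.7 CPM in anti-PD-1 and 64.5 ± 16.7 CPM in untreated libraries (SD, n = 3 each), a log2 fold change of -0.89 ± 0.31 (SE) with a 95% interval from -1.53 to -0.25. Its unadjusted p of 0.00884 in edgeR ranked 197 among 10352 genes, and the adjusted p was 0.461 (DESeq2 adjusted p = 0.328). The log2 fold change was -0.53 when anti-PD-1 library 4 was left out, -1.42 when anti-PD-1 library 6 was and -0.65 when untreated library 1 was, with adjusted p-values of 0.84, 0.26 and 0.681 in edgeR. Over all alternatives its adjusted p ran from 0.115 to 0.921.

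**Figure D2:**
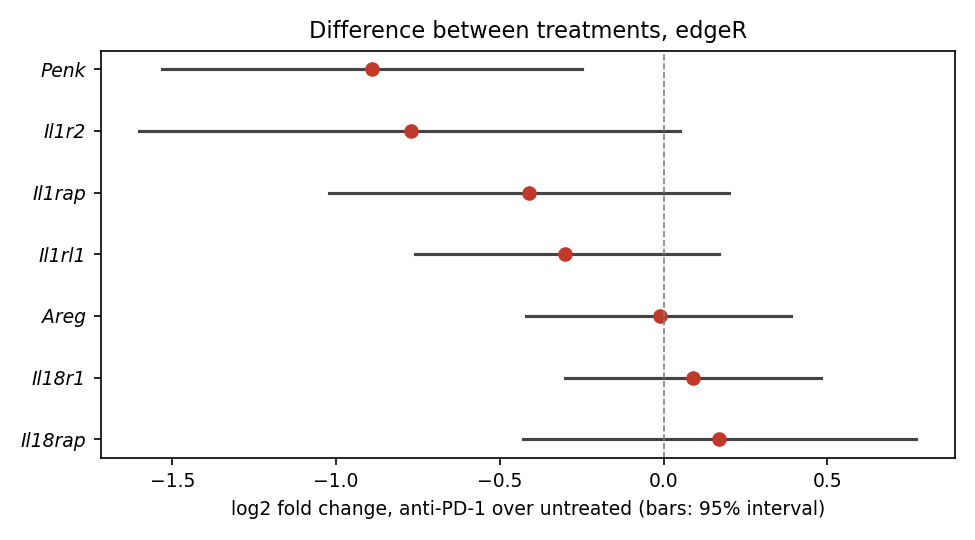
Log2 fold change of the 7 tested genes, anti-PD-1 over untreated (horizontal axis), as points with 95% intervals from edgeR. The interval of Penk, -1.53 to -0.25, does not reach 0 before adjustment, and those of the other 6 genes do.

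Some members varied together from library to library, within the groups as well. Penk and Il1r2 were both lowest in anti-PD-1 library 4 (-1.44 and -1.19 from the gene's mean on the log2 scale) and highest in untreated library 1 (0.90 and 1.11), with a Pearson r of 0.93 over the 6 libraries and 0.91 after removal of the group means. Every tested member was highest in untreated library 1, Il1rap (0.47) and Areg (0.40) included, so this peak is not particular to Penk and Il1r2. Il18r1, Il18rap, Il1rl1 and Areg were above their means in anti-PD-1 library 4, where Penk and Il1r2 were lowest. The r of Il18r1 and Il18rap was 0.90, and within groups 0.89. Over the 6 libraries, no other pair of tested members had a higher r than these 2 pairs. These are descriptions of 6 points that share their libraries and, as untreated library 1 was also the deepest, their depth. Among 7206 other tested genes of at least 10 CPM, the pair most like each tested member over the 6 libraries were Smek1 and Cldn25 for Il1rl1, Otud1 and Cox5a for Il1r2, Hspa9 and Tmem50a for Il1rap, Ankrd13a and Atl2 for Il18r1, Myo3b and Lrch1 for Il18rap, Zfp35 and Ripk1 for Areg, and Nvl and Acadm for Penk. Their r on the log2 CPM scale lay between 0.979 (Cox5a) and 0.9997 (Zfp35). These are the highest of 7206 r over 6 libraries, so values near 1 do not show shared regulation.

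**Figure D3:**
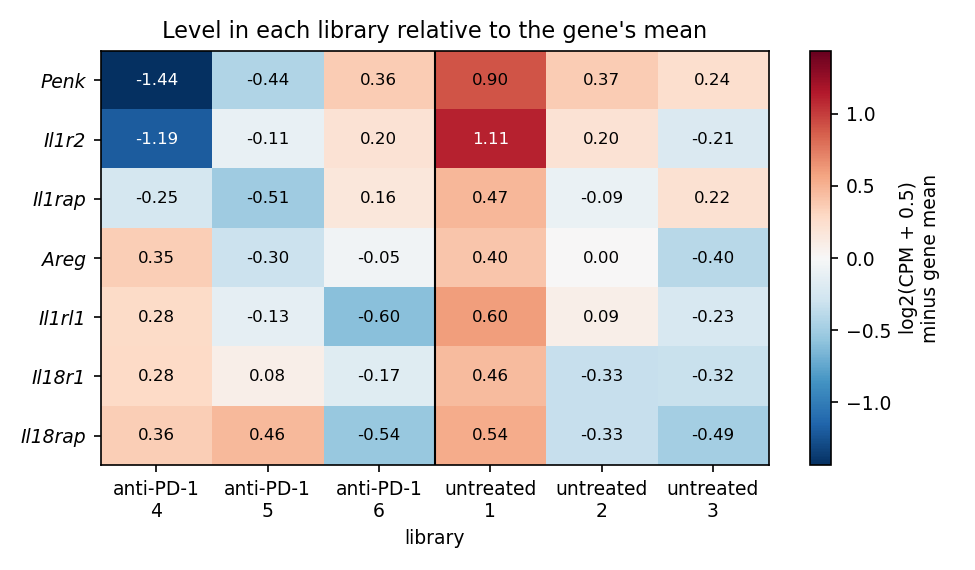
Level of each tested gene in each library (columns, anti-PD-1 left of untreated), as log2(CPM + 0.5) minus the gene's mean over the 6 libraries; red is above and blue below the mean. Penk and Il1r2 are both lowest in anti-PD-1 library 4 (-1.44 and -1.19). Every gene is highest in untreated library 1 (0.90 for Penk and 1.11 for Il1r2).

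Of the genes that act with these receptors, the ligands that could be looked up were sparse. Of 10 IL-1 family ligands, 6 matched a symbol and 2 were tested, both with values below 0. The IL-36 genes of the list did not match a symbol, so their level is not known here. Il1rn, the antagonist of the IL-1 receptor, had 0.948, 9.11 and 10.3 CPM in anti-PD-1 libraries, against 21.1, 15.2 and 5.06 CPM in untreated libraries (log2 fold change -1.06 ± 0.58 (SE), edgeR adjusted p = 0.658). Il1b, the gene of IL-1 beta, averaged 2.57 ± 3.14 CPM in anti-PD-1 and 2.71 ± 1.48 CPM in untreated libraries (SD, n = 3 each). Il33 was counted in untreated library 1 at 4.32 CPM and in no other library. Among 5 other receptors and decoys, 1 was tested, the inhibitory receptor Sigirr, at 24.4 ± 2.11 CPM in anti-PD-1 and 16.1 ± 5.80 CPM in untreated libraries (log2 fold change 0.61 ± 0.35 (SE), edgeR adjusted p = 0.674).

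The signalling genes below the receptors were all expressed: 23 of 23 passed the filter, 9 with values above and 14 below 0 (median log2 fold change -0.08), and none passed in either direction (edgeR adjusted p from 0.598). The smallest p belonged to the kinase gene Chuk (-0.43 ± 0.21, SE), the kinase gene Map3k8 (0.50 ± 0.25) and Irak2 (-0.43 ± 0.22), and no gene of the list had an unadjusted p under 0.05. Of 11 genes for cleavage of IL-1 family cytokines, 5 were tested and none passed, with Casp1, Pycard and Casp8 at log2 fold changes of -0.28, 0.23 and 0.05.

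Around amphiregulin, 5 of 14 genes for EGF receptor ligands, receptors and shedding were tested, all with values below 0 (median -0.25), and none passed. Adam17, the protease that sheds amphiregulin from the cell surface, had 215, 219.8 and 155 CPM in anti-PD-1 libraries, against 300.2, 270 and 255 CPM in untreated libraries. Each anti-PD-1 library lay below every untreated library, as for 6.44% of tested genes (log2 fold change -0.48 ± 0.16 (SE), edgeR unadjusted p = 0.00719, adjusted p = 0.459). Adam10, a related protease, and the ligand Tgfa were at -0.25 ± 0.15 and -1.92 ± 0.94 (SE), with Tgfa at 1.10 CPM in anti-PD-1 and 4.02 CPM in untreated libraries. The Tgfa counts were few and overlapped, at 1, 10 and 5 in anti-PD-1 and 35, 4 and 34 in untreated libraries. The EGF receptor gene itself, Egfr, was counted in 1 library. Around Penk, 3 of 15 genes for opioid peptides, their processing and their receptors were tested and none passed. Ctsl, a protease, was at 1.02 ± 0.44 (SE, unadjusted p = 0.0301), the convertase gene Pcsk1 at -1.39 ± 0.65 (unadjusted p = 0.0433), with 22.9 CPM in untreated library 1 and 2.48 to 7.01 CPM in all others, and the peptidase gene Dpp3 at -0.44 ± 0.31, on the log2 scale of edgeR's fold changes.

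The programme of ST2-bearing tissue Tregs, a list of 20 genes that include transcription factors, surface molecules and Il10, had 19 tested genes. Of these, 16 had values below 0 and 3 above (Irf4, Dgat1 and Dgat2), with a median log2 fold change of -0.47 against 0.00 for all tested genes. No gene of the list had an adjusted p under 0.05 in edgeR. Lower values with an unadjusted p under 0.05 were found for 9 genes (5 without anti-PD-1 library 5), where 4.07% of tested genes had them. The list was chosen with earlier results of these data known, so these counts describe it and do not test it. Its counts with a library left out were not planned beforehand. The smallest p belonged to Klrg1, an inhibitory receptor of differentiated Tregs, at 49.6 ± 5.34 CPM in anti-PD-1 and 89.3 ± 14.9 CPM in untreated libraries (SD, n = 3 each, log2 fold change -0.84 ± 0.21 (SE), edgeR adjusted p = 0.227). DESeq2 called Klrg1 (adjusted p = 0.0262) and no other gene of this list. The transcription factor Maf and the integrin Itgae had log2 fold changes of -0.50 ± 0.15 and -0.42 ± 0.15 (SE). Gata3, which in mice is needed for ST2 expression in Tregs, stood at 178 ± 21.8 CPM in anti-PD-1 and 202 ± 26.6 CPM in untreated libraries (-0.18 ± 0.17, edgeR adjusted p = 0.819). The summed level was 2454 to 2876 CPM in anti-PD-1 and 3301 to 3592 CPM in untreated libraries, without overlap. The sum of the EGF receptor list did not overlap either (429 to 513 CPM in anti-PD-1, 589.6 to 640.4 CPM in untreated libraries). Adam10 (mean 258 CPM in anti-PD-1, 307 CPM in untreated libraries) and Adam17 (197 and 275 CPM) gave nearly all of it. The sum of the other IL-1 family receptors and decoys did not overlap but was higher in anti-PD-1 (23.9 to 36.5 CPM, against 11.5 to 23.1 CPM in untreated libraries). For list sums, the share that separates over all genes was not computed. In the programme's sum Itgae (mean 669.9 CPM in anti-PD-1, 896 CPM in untreated libraries) and Maf (372 and 528 CPM) weighed most. Without untreated library 1, 14 of 19 genes lay below 0, 9 of them at an unadjusted p under 0.05, and edgeR called Klrg1. Beside this, 7 Treg markers summed to 5504 to 6249 CPM in anti-PD-1 and 6484 to 7224 CPM in untreated libraries, also without overlap. The part of the Treg markers in the list's values was not tested. The markers Ctla4 and Ikzf2 were lower and Foxp3 and Cd4 higher in every anti-PD-1 than in every untreated library, as were 6.44% (lower) and 7.18% (higher) of all tested genes. Ctla4 (log2 fold change -0.41) and Il2ra (-0.35) had unadjusted p-values of 0.0055 and 0.0358 in edgeR, and none of the 7 passed adjustment. The 20 repair and growth factors had 10 tested genes, 6 above and 4 below 0 with a median of 0.03, none of which passed. The smallest p belonged to Trf (-0.54 ± 0.26, SE), Sparc (1.80 ± 1.1) and Furin (0.33 ± 0.23). The Sparc counts were few and overlapped, at 16, 23 and 3 in anti-PD-1 and 0, 2 and 12 in untreated libraries.

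**Figure D4:**
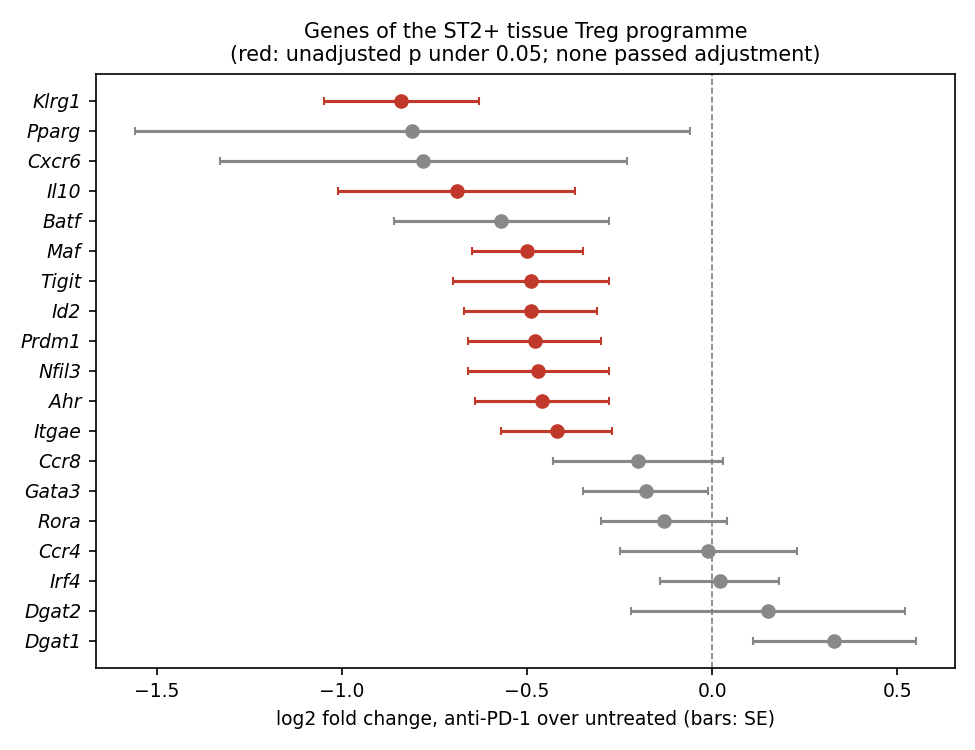
Log2 fold change, anti-PD-1 over untreated (horizontal axis), of the 19 tested genes of the ST2-bearing tissue Treg programme, with SE bars; red points have an unadjusted p under 0.05 in edgeR. Klrg1 has the lowest value at -0.84, Irf4, Dgat1 and Dgat2 lie above 0, and no gene passed adjustment over all genes.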

How the data were processed

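RNA of sorted tumor Tregs was counted in 3 anti-PD-1 and 3 untreated libraries. The deposited table holds unnormalised counts; per the file headers the authors ran featureCounts 1.5.2 in stranded mode (setting 1) against a UCSC mm10 gene model. The kit was NuGEN Ovation SoLo, per the labels' protocols. How duplicates were handled is not given in the sources used here. An unnamed column (1) was not used.

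Genes passed edgeR's filterByExpr (count 10, total 15), which kept 99.8% of counts. Libraries were scaled by TMM, and edgeR 4.0.16 in R 4.3.3 tested treatment alone, two-sided, with robust quasi-likelihood (the non-legacy method), Benjamini-Hochberg adjusted over all tested genes. SDs are over 3 libraries, SEs and 95% intervals from the fit. No replicate number occurs in both groups, so nothing was paired. A chi-square of the counts was at least 9.87 per degree of freedom for every pair of libraries, so none was a copy. Alternatives used DESeq2 1.42.0, limma 3.58.1 (voom), other scalings and filters, and leaving out each library.

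The members and the 8 pathway and 12 marker lists were chosen with earlier results of these data known. The text names all members, up to 3 genes of smallest p per list, and for each tested member the 2 genes of at least 10 CPM with the highest r. Other genes (Foxp3, Cd4, Ctla4, Ikzf2, Il2ra, Gata3, Il33, Egfr, those above 0 in the programme list and the markers) were chosen after their values were seen. Of 199 list entries, 2 matched by a RefSeq synonym and 5 did not match.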

Additional observations from a re-analysis of the deposited data

How the results depend on the processing

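None of the 7 tested members was called under any of the 17 alternatives, while the count of all genes called moved from 3 to 34 with DESeq2, 5 with limma-voom, 12 with limma-voom and quality weights, 5 in edgeR without robust shrinkage, 7 with scaling by total counts, 5 with the upper quartile and 52 without a filter, and lay between 1 (without anti-PD-1 library 5) and 19 (without untreated library 1) when 1 library was left out. Penk, Il1r2, Il1rap and Il1rl1 kept values below 0 in all 17 (Penk from -1.42 to -0.53). Areg, at -0.01, turned to 0.02 with scaling by total counts or the upper quartile and to 0.14 with limma-voom and quality weights, and ran from -0.21 to 0.21 when 1 library was left out. In the same settings Il18r1 ran from -0.04 to 0.40 and Il18rap from -0.02 to 0.57. The mean log2 ratio of Il18rap to Il18r1 then differed by -0.12 to 0.26 between the groups, and that of Il1rl1 to Il1rap by -0.13 to 0.52. The cause of these turns was not tested. The earlier quasi-likelihood method of edgeR, added after the data were seen, gave Penk an unadjusted p of 0.0225. No paired analysis was possible because the groups share no replicate number. At 3 counts the floor was 0.48 to 0.621 CPM per library, so the untreated values of Il1r1 lie below it.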
